A study of Mus musculus with 6 samples.

Results

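The 38 HOX genes were followed here in the sciatic nerve of mice whose Schwann cells lacked Zeb2. Every probe set named by a single gene symbol of the form Hoxa, Hoxb, Hoxc or Hoxd plus a number was taken, which gave 38 of 20239 named genes. Of these, 10 belonged to the HOXA cluster, 10 to HOXB, 9 to HOXC and 9 to HOXD. Mutants (DhhCre::Sip1 flox/flox, 3 mice) had both alleles of Sip1 floxed and the DhhCre transgene, in which Desert hedgehog sequences drive Cre in the Schwann cell lineage. Controls (Sip1 flox/flox, 3 mice) had the same floxed alleles and no Cre. Sip1 is another name of Zeb2, which encodes a zinc finger and homeodomain repressor. All mice were 25 days old, and RNA of the nerve was measured on 1-colour Affymetrix whole-transcript arrays, 1 array per mouse.

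HOX genes encode homeodomain transcription factors and lie in 4 clusters, numbered by paralog group from one end of a cluster to the other. Low-numbered genes are switched on early and towards the head of the embryo, high-numbered genes later and towards the tail and the ends of the limbs, so that the set of active HOX genes marks a cell's place along the body. Cells of adult connective tissue are known to keep much of that code. HOX proteins bind DNA together with PBX and MEIS partners. In the embryo the clusters are opened by retinoic acid and CDX factors and held silent by Polycomb complexes.

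The array values are on a log2 scale, and with 3 arrays a group the precision is limited by their number. Array medians over the named genes lay between 8.02 and 8.11. Mutants 1 to 3 had Zeb2 values of 10.96, 10.66 and 11.01, against 11.67, 11.57 and 12.02 in controls 1 to 3, with no overlap (log2 fold change −0.88, SE 0.15, limma adjusted p = 0.0137). Without mutant 1 the adjusted p was 0.0522. All 4 measured Schwann cell markers (S100b, Sox10, Cdh19 and Erbb3) were well above the array median, with means of 10.43 to 11.16. Muscle transcript differed between nerves. Summed over 8 genes of skeletal muscle, the log2 level reached 11.07, 16.18 and 14.20 in mutants 1 to 3, against 11.07, 16.26 and 14.39 in controls 1 to 3. It followed the replicate number in both groups.

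Part of the HOX genes were higher in mutant nerves, and none was called lower. Of the 38 members 11 rose and none fell, at a Benjamini-Hochberg adjusted p under 0.05 in limma's moderated test over all 20239 genes. Of all named genes 5.74% were called higher and 3.89% lower, 9.62% in all. No HOX gene was lower at an unadjusted p under 0.05 either, a level that 22.4% of all genes passed in one direction or the other, and no other test was run. The 11 genes were Hoxa3, Hoxa5, Hoxa6 and Hoxa7, then Hoxb5, Hoxb6, Hoxb8 and Hoxb9, then Hoxc5, Hoxc6 and Hoxc9. In the HOXD cluster 0 of 9 passed, also at an unadjusted p under 0.05. The difference between HOXD and the other clusters was not tested. The median log2 fold change was 0.25 over the 38 members and −0.02 over all named genes. In 20 members all 3 mutant values lay above all 3 control values, as in 16.3% of all genes, and in none did they lie below, as in 11.8% of all genes (28.1% either way). The difference was positive in 31 members and negative in 7, but positive in 26 when each array was centred on its median.

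**Figure D1:**
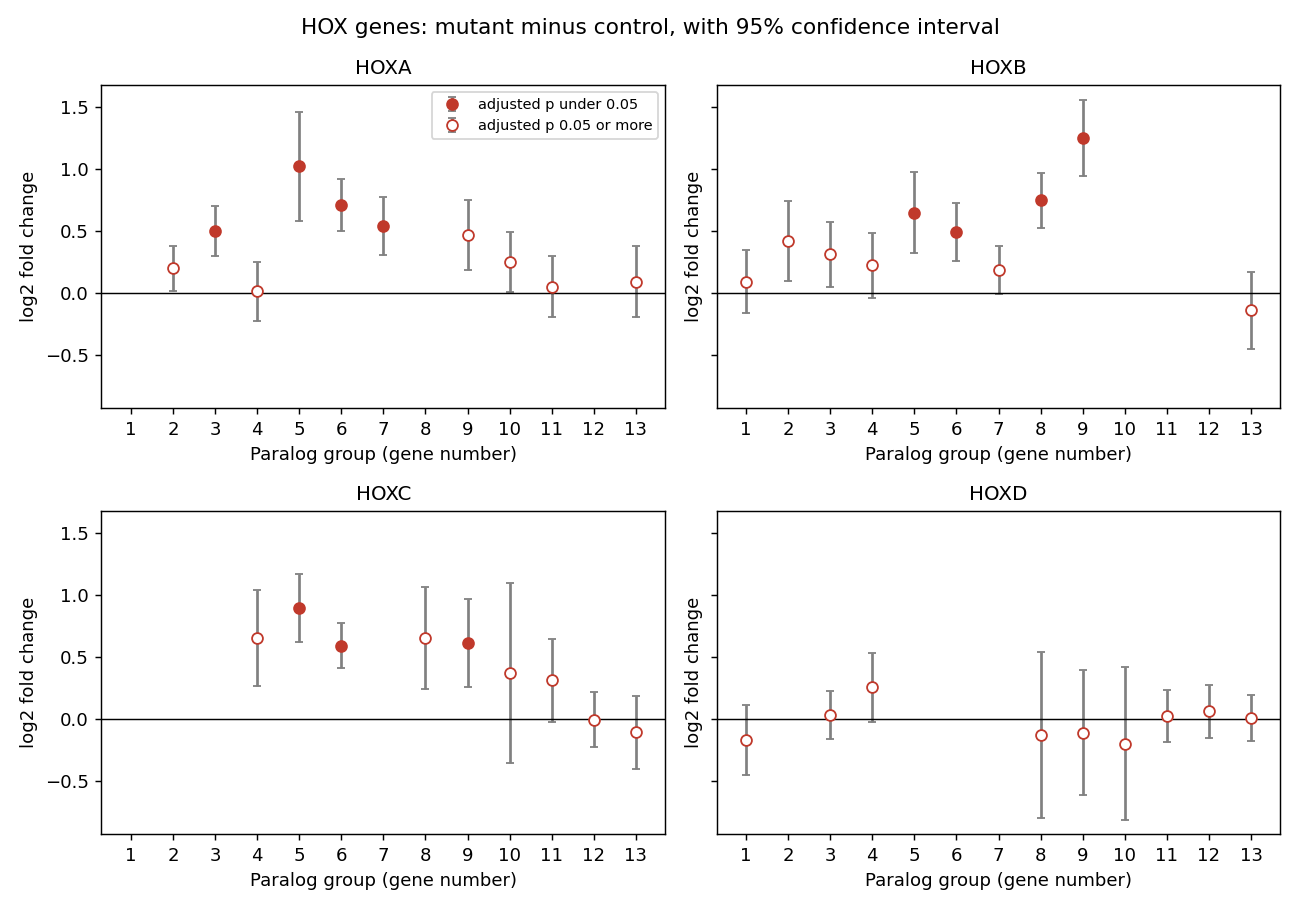
Each point is the difference of mutant and control means (log2 fold change, y axis) of a HOX gene with its 95% confidence interval, set out by paralog group (x axis) in the 4 clusters. Filled points, 11 in all, passed an adjusted p under 0.05; they lie in groups 3 to 9 of HOXA, HOXB and HOXC, and none lies in HOXD.

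The stretch of DNA just before the start of a gene is shown for 4 members, from RefSeq sequence of GRCm38.p6, 250 bases each, 5′ to 3′ on the strand of the gene. Hoxa5 (chr6:52204588-52204837, minus strand) and Hoxa6 (chr6:52208673-52208922, minus strand) are shown as neighbours that both rose. Hoxb8 (chr11:96281655-96281904, plus strand) is a member that rose and holds a PBX and HOX motif, and Hoxd8 (chr2:74704365-74704614, plus strand) is the member of HOXD with the highest array value, which did not pass. Capitals mark the motif of PBX and HOX pairs, TGATNNAT.
Hoxa5: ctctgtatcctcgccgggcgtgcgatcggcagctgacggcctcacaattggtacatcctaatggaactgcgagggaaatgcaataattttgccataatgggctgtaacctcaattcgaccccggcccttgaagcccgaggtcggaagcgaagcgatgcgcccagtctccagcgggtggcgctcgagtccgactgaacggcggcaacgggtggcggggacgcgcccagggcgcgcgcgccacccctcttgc
Hoxa6: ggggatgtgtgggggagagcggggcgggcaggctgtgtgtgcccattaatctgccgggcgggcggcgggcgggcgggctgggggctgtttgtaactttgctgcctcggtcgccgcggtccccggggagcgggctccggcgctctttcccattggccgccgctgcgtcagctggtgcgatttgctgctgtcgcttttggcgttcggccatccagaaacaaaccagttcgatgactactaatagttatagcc
Hoxb8: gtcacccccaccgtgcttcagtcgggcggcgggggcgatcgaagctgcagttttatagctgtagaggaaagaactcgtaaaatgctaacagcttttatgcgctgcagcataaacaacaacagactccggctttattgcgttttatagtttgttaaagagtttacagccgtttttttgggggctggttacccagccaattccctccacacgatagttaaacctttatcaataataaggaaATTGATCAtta
Hoxd8: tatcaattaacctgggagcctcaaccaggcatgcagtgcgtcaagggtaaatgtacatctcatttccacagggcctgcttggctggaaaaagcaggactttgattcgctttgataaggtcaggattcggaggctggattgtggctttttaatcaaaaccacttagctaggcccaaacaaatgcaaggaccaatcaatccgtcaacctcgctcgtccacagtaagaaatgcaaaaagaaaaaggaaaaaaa
The table of start sites held 22 of the 38 members, with 24 windows. The letters TGATNNAT, read on both strands, were found in 4 of these windows, those of Hoxa2, Hoxb1, Hoxb8 and Hoxd11, and in 7.68% of 32851 windows of all genes. In Hoxb8 the match began 11 bases before the start. The E-box CACCTG, letters that ZEB proteins are known to bind, was searched on both strands as CACCTG and CAGGTG. It was in 0 of the 24 HOX windows and in 17.2% of all windows, which says only that these letters are not in these windows.

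In HOXA, the genes from Hoxa5 to Hoxa7 rose side by side. Hoxa5, which patterns the neck and upper chest and the airway, had 8.73, 8.51 and 8.98 in mutants 1 to 3, against 7.90, 7.89 and 7.36 in controls 1 to 3. The groups were apart, and control 3 was the lowest mouse. The log2 fold change of 1.02 had an SE of 0.19 and a 95% interval of 0.58 to 1.46 (limma adjusted p = 0.0167). Hoxa6 had 8.14, 8.18 and 8.30 in mutants, against 7.52, 7.57 and 7.40 in controls. Its groups were narrow and apart (log2 fold change 0.71, SE 0.09, adjusted p = 0.00421). Hoxa7, a trunk gene, had 8.88, 9.01 and 9.12 in mutants, against 8.55, 8.49 and 8.36 in controls (log2 fold change 0.54, SE 0.10, adjusted p = 0.0171). Hoxa9, which is also known from blood stem cells and leukaemia, had 9.09, 9.04 and 9.10 in mutants, against 8.61, 8.83 and 8.40 in controls. Its groups were apart but it did not pass (log2 fold change 0.47, adjusted p = 0.0565).

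Towards the other end of the cluster, Hoxa3 rose as well. Hoxa3, needed for the thymus and parathyroid, had 7.43, 7.38 and 7.53 in mutants, against 6.86, 7.01 and 6.97 in controls (log2 fold change 0.50, SE 0.09, adjusted p = 0.0141). Between Hoxa3 and Hoxa5, Hoxa4 had 8.32, 8.38 and 8.40 in mutants, against 8.41, 8.47 and 8.17 in controls. Its values overlapped, and the log2 fold change was 0.01 (95% confidence interval −0.22 to 0.25). The others of HOXA that did not pass were Hoxa2, the gene of the second pharyngeal arch, at 0.20, Hoxa10, a gene of the lumbar region and the uterus, at 0.25, and the limb genes Hoxa11 at 0.05 and Hoxa13 at 0.09. The calls of Hoxa3 and Hoxa5 were lost without mutant 1 (adjusted p = 0.071 for each) and without mutant 3 (0.0748 and 0.0706). That of Hoxa7 was lost without mutant 3 (0.0819) or control 2 (0.0523), and those of Hoxa3 (0.0516) and Hoxa7 (0.0933) without both mice numbered 2.

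In HOXB the largest difference of all 38 members was that of Hoxb9, a gene of the chest segments. Hoxb9 had 8.71, 8.52 and 8.87 in mutants, against 7.47, 7.26 and 7.62 in controls. Every mutant value was more than 0.9 above the highest control value. The log2 fold change of 1.25, or 2.38-fold, had an SE of 0.13 and a 95% interval of 0.94 to 1.56 (limma adjusted p = 0.0022). Its neighbour Hoxb8, known from microglia and grooming behaviour, had 7.36, 7.14 and 7.20 in mutants, against 6.40, 6.56 and 6.49 in controls (log2 fold change 0.75, SE 0.09, adjusted p = 0.00432). Hoxb8 had the lowest array value of its cluster.

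Hoxb5 and Hoxb6 rose too, while the gene between Hoxb6 and Hoxb8 did not pass. Hoxb5 had 8.48, 8.14 and 8.31 in mutants, against 7.42, 7.76 and 7.79 in controls (log2 fold change 0.65, adjusted p = 0.0296). Hoxb6 had 7.97, 7.70 and 7.78 in mutants, against 7.30, 7.28 and 7.40 in controls (log2 fold change 0.49, adjusted p = 0.0254). In both genes the groups were apart. Hoxb7 stood at a log2 fold change of 0.18 (95% confidence interval −0.01 to 0.38). Hoxb3, the highest gene of the cluster by array value, had 8.96, 8.70 and 8.89 in mutants, against 8.62, 8.38 and 8.62 in controls (log2 fold change 0.31, adjusted p = 0.15). Hoxb2 stood at 0.42 (adjusted p = 0.117), Hoxb4, known to expand blood stem cells, at 0.22, Hoxb1, a hindbrain gene, at 0.09 and Hoxb13, a gene of the tail and prostate, at −0.14. The calls of Hoxb5 and Hoxb6 depended on single mice. They were lost without mutant 1 (adjusted p = 0.123 and 0.105), mutant 3 (0.115 and 0.0931), control 1 (0.0546 and 0.0644) or control 2 (0.0602 and 0.0832), and with sex as a covariate (0.0743 and 0.0684). Without both mice numbered 2 they were lost too (0.0602 and 0.0779), that of Hoxb5 also with the muscle score as a covariate (0.0501), and that of Hoxb6 with median centring (0.0548). Hoxb2 passed without mutant 2 (adjusted p = 0.0178).

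HOXC held the HOX genes with the highest array values, and 3 of its 9 members rose, Hoxc5, Hoxc6 and Hoxc9. Hoxc6, a gene of the forelimb level of the spinal cord, had 9.60, 9.47 and 9.51 in mutants, against 8.92, 8.93 and 8.96 in controls. The spread within each group was small, and the log2 fold change was 0.59 (SE 0.08, limma adjusted p = 0.0051). Hoxc5 had 9.25, 9.05 and 9.25 in mutants, against 8.19, 8.49 and 8.19 in controls (log2 fold change 0.90, SE 0.12, adjusted p = 0.00479), the smallest p of the cluster. Hoxc9, which sets the chest-level identity of motor neurons, had 8.48, 8.32 and 8.50 in mutants, against 7.88, 8.06 and 7.51 in controls. Its groups were apart, and it passed narrowly (log2 fold change 0.61, SE 0.15, adjusted p = 0.0489). With the replicate number as a block the adjusted p of Hoxc9 was 0.0595.

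Hoxc8, a gene of brachial motor neurons, had 9.57, 9.36 and 9.70 in mutants, against 9.16, 8.97 and 8.55 in controls. These groups were apart as well, but it did not pass (log2 fold change 0.65, SE 0.17, adjusted p = 0.0657). Hoxc4 was close to the threshold in the same way (log2 fold change 0.65, adjusted p = 0.0528). Hoxc11 stood at 0.31 (adjusted p = 0.261), Hoxc12 at −0.01 and Hoxc13, a gene of hair and nails, at −0.11. Hoxc9 did not pass without any one mouse other than control 2, with adjusted p from 0.061 without control 3 to 0.182 without mutant 3. It also did not pass without both mice numbered 2 (0.0533), with the muscle score (0.0769) or with median centring (0.0545). Hoxc8 passed without control 1 (adjusted p = 0.0455), and Hoxa9 passed without control 2 (0.0331).

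The 5 genes Hoxa6, Hoxb8, Hoxb9, Hoxc5 and Hoxc6 passed in each of the 6 fits that left out 1 mouse. The count of HOX genes called higher was 6 without mutant 1 and 5 without mutant 3.

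In HOXD no member passed, and the groups overlapped in 8 of 9 members, as in 14548 of all 20239 named genes. On the mean of the 6 arrays, 3 of the 9 lay above the receptor limit described below, against 19 of 29 in HOXA, HOXB and HOXC. The part of array signal in this contrast was not tested. Hoxd4 had the smallest p, with 7.86, 7.86 and 7.96 in mutants, against 7.71, 7.81 and 7.41 in controls (log2 fold change 0.25, 95% confidence interval −0.03 to 0.53, limma adjusted p = 0.271). Its mutant values lay above its control values by a narrow margin. Hoxd3 stood at 0.03 (95% confidence interval −0.16 to 0.22), Hoxd11 at 0.02 (−0.19 to 0.23), Hoxd12 at 0.06 (−0.15 to 0.27) and Hoxd13, the gene of digits, at 0.01 (−0.18 to 0.19). Hoxd1 stood at −0.17 (−0.45 to 0.11). The upper bounds of these intervals lie below the log2 fold changes measured for Hoxa5 and Hoxb9. That of Hoxd4, 0.53, lies above the log2 fold changes of the called genes Hoxa3 (0.50) and Hoxb6 (0.49). The intervals of Hoxd8, Hoxd9 and Hoxd10 were wide, from −0.80 to 0.53, −0.62 to 0.39 and −0.81 to 0.41.

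In the genes with wide intervals the mice numbered 2 stood out, control 2 in all 3 and mutant 2 in Hoxd10. Hoxd8 had 8.11, 8.11 and 7.81 in mutants 1 to 3, against 7.64, 8.80 and 7.999 in controls 1 to 3. Hoxd9 had 7.16, 7.32 and 7.24 in mutants, against 7.01, 7.86 and 7.19 in controls. Control 2 was the highest of the 6 mice in both genes. Hoxd10 had 7.06, 7.75 and 7.16 in mutants, against 7.49, 7.97 and 7.11 in controls, so that mutant 2 and control 2 were its highest mice. Hoxc10, which with Hoxd10 sets lumbar identity of hindlimb motor neurons, had 8.52, 8.73 and 8.50 in mutants, against 8.03, 8.95 and 7.66 in controls. Of the 38 members these 4 were the ones in which control 2 exceeded the mean of the other controls by more than 0.5, the excess running from 0.67 in Hoxd10 to 1.11 in Hoxc10. In mutant 2 the same excess over the other mutants passed 0.5 in Hoxd10 alone, at 0.64. Mutant 2 and control 2 were the nerves with the most muscle transcript, and their satellite cell markers (Pax7, Myf5, Myod1 and Calcr) summed to 9.54 and 9.53, against 9.06 to 9.23 in the other 4 mice. Of these 4 satellite cell markers 2 lay at the level of receptor genes that nerve is not known to use. The mice numbered 3 had muscle sums of 14.20 and 14.39, against 11.07 in those numbered 1. Control 3 was nevertheless the lowest control in Hoxc10 and Hoxd10, and mutant 3 the lowest mutant in Hoxc10 and Hoxd8. Control 3 lay above control 1 in Hoxd8 and Hoxd9, and mutant 3 above mutant 1 in Hoxd9 and Hoxd10. How these genes relate to muscle transcript was not tested. With the muscle score as a covariate the log2 fold changes were −0.12 for Hoxd8, −0.10 for Hoxd9, −0.18 for Hoxd10 and 0.38 for Hoxc10, and none passed. In the main fit Hoxc10 did not pass, at a log2 fold change of 0.37 (confidence interval −0.36 to 1.09, limma adjusted p = 0.558). Without control 2 Hoxc10 passed, at a log2 fold change of 0.74 (adjusted p = 0.0422), while Hoxd8 stood at 0.19, Hoxd9 at 0.14 and Hoxd10 at 0.02. Hoxc10 passed in 1 of the 20 alternatives described below.

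**Figure D2:**
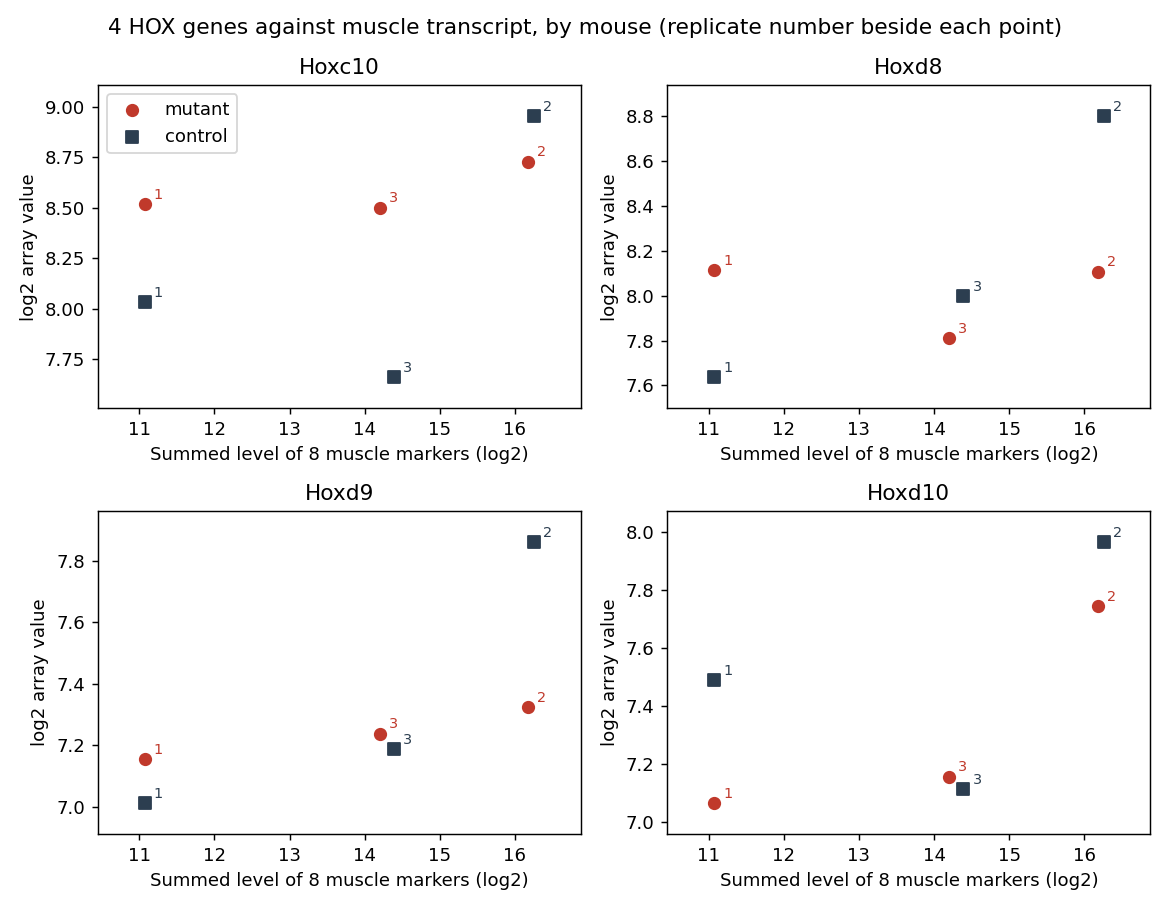
Array values (log2, y axis) of Hoxc10, Hoxd8, Hoxd9 and Hoxd10 are plotted against the summed level of 8 muscle markers (log2, x axis), 1 point per mouse with its replicate number, mutants as circles and controls as squares. Control 2, at 16.26 on the muscle axis, is the highest mouse in all 4 genes, and mutant 2, at 16.18, is the next highest in Hoxc10, Hoxd9 and Hoxd10.

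By array value the members ranged from 6.06 to 9.23 on the mean of the 6 arrays. Probe sets bind with different strength, so the order is one of array values and not of transcript numbers. No detection calls were used. As a guide, the means of 1307 olfactory, vomeronasal and trace amine receptor genes, which nerve is not known to use, had a 95th percentile of 7.40, and 62.4% of all named genes lay above it. Of the 38 members 22 lay above it on the mean of the 6 arrays. By cluster, above it lay 6 of 10 in HOXA, 7 of 10 in HOXB, 6 of 9 in HOXC and 3 of 9 in HOXD. All 9 members of groups 11 to 13 lay at or below it, between 6.06 and 7.19. All 3 members of group 5 and all 3 of group 6 lay above it. Of the 11 genes that rose, Hoxa3 (mean 7.20) and Hoxb8 (mean 6.86) lay below it on the mean of all arrays, so their differences sit near background. In controls alone, Hoxb6 also lay below the limit (mean 7.33), and Hoxb9 (7.45) and Hoxa6 (7.49) were close to it. The members nearest to the limit were Hoxd10 above it (7.42) and Hoxb4 below it (7.38).

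Within HOXA the order was Hoxa9 (8.85 ± 0.29, mean ± SD over the 6 arrays), Hoxa7 (8.73 ± 0.31), Hoxa4 (8.36 ± 0.10), Hoxa5 (8.23 ± 0.61), Hoxa6 (7.85 ± 0.40) and Hoxa10 (7.83 ± 0.17). Hoxa3, Hoxa2, Hoxa11 and Hoxa13 followed. Hoxa9 and Hoxa7 were within an SD of each other, and so were the neighbours from Hoxa4 to Hoxa10, whereas Hoxa10 stood above Hoxa3 on all 6 arrays by a mean of 0.63. Within HOXB, Hoxb3 (8.69 ± 0.21) led on all 6 arrays. Hoxb9 (8.07 ± 0.70), Hoxb2 (8.06 ± 0.28) and Hoxb5 (7.98 ± 0.39) came next and were not separable by their spread. Hoxb9 held places 2 to 6 on single arrays. Hoxb6, Hoxb1, Hoxb7 and Hoxb4 followed between 7.57 and 7.38, again within their spread, with Hoxb13 and Hoxb8 last.

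Within HOXC, Hoxc6 (9.23 ± 0.33) and Hoxc8 (9.22 ± 0.42) shared the top, each ahead on 3 of 6 arrays. They were followed by Hoxc5 (8.74 ± 0.51), Hoxc10 (8.40 ± 0.47), Hoxc9 (8.13 ± 0.39) and Hoxc4 (7.50 ± 0.41). A step of 0.75, present on all 6 arrays, separated Hoxc4 from Hoxc12, Hoxc11 and Hoxc13. Within HOXD, Hoxd8 (8.08 ± 0.40), Hoxd4 (7.77 ± 0.19), Hoxd10 (7.42 ± 0.37), Hoxd9 (7.30 ± 0.30) and Hoxd11 (7.19 ± 0.08) were not separated from their neighbours beyond the SD. Hoxd3 lay below Hoxd11 on all 6 arrays, and Hoxd1, Hoxd13 and Hoxd12 came last. The highest members of HOXA and HOXC by array value thus lay in groups 6 to 9, and that of HOXB in group 3. In HOXD, Hoxd8 and Hoxd4 kept their order on 4 of 6 arrays.

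**Figure D3:**
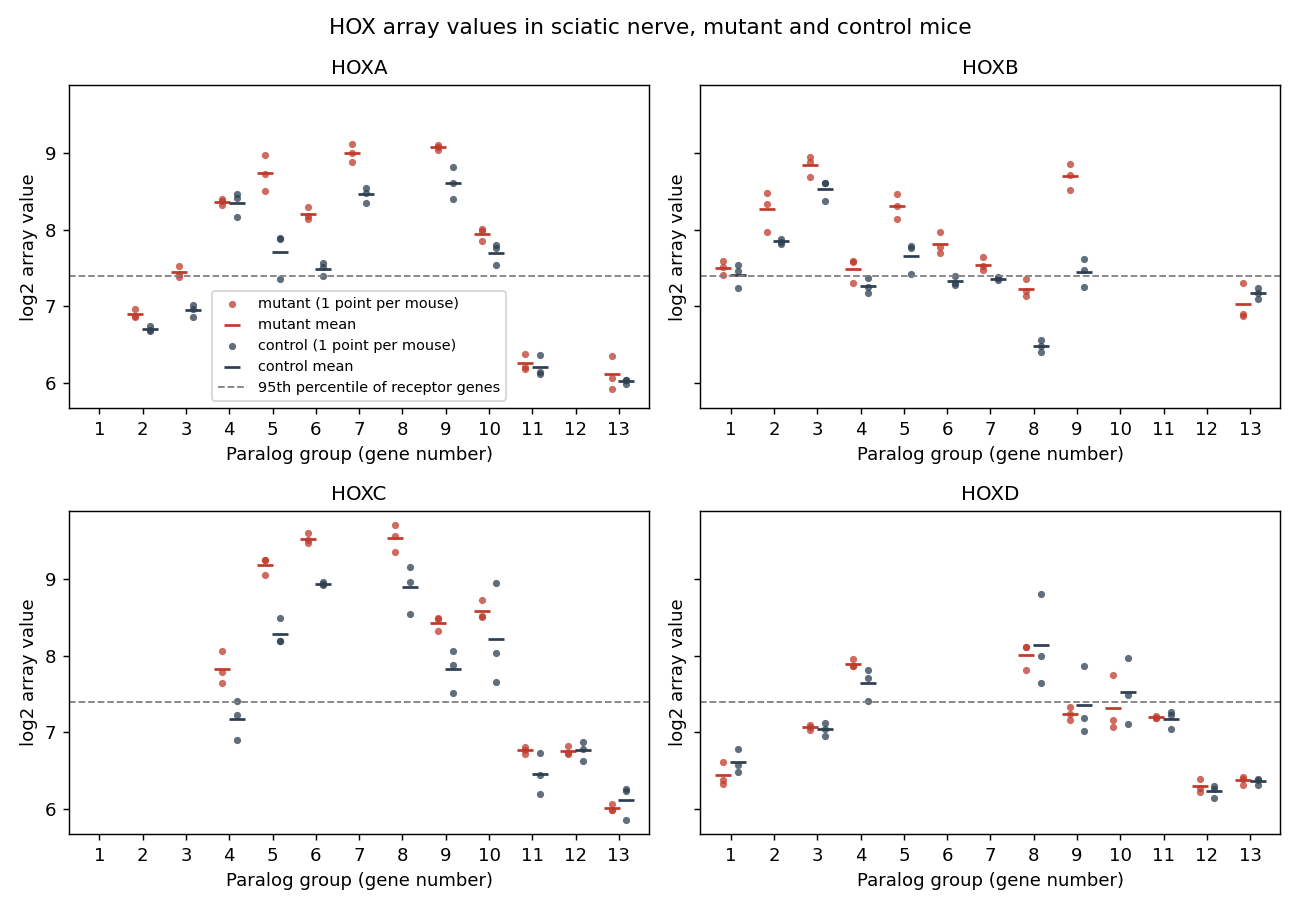
Array values (log2, y axis) of the 38 HOX genes by paralog group (x axis) in the 4 clusters, with 1 point per mouse, mutants to the left of controls, and bars at the group means. The dashed line at 7.40 is the 95th percentile of receptor genes. Groups 11 to 13 lie at or below it on the mean of all arrays. Mutants lie above controls in groups 5 to 9 of HOXA, HOXB and HOXC, a range picked after the values were seen.

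The members were also set out by paralog group. In the region of groups 4 to 8, 8 of 15 members rose, with a median log2 fold change of 0.59. In groups 1 to 3, 1 of 7 rose (median 0.20), and in groups 9 to 13, 2 of 16 rose (median 0.05). Of all named genes 5.74% were called higher. The receptor limit was passed by 13 of 15 members in groups 4 to 8. In groups 1 to 3 it was passed by 3 of 7, and in groups 9 to 13 by 6 of 16. Among all HOX genes, 9 of the 22 above that limit rose, and 2 of the 16 not above it. The members of group 5 all rose, with log2 fold changes of 1.02 in Hoxa5, 0.65 in Hoxb5 and 0.90 in Hoxc5, and so did those of group 6, with 0.71 in Hoxa6, 0.49 in Hoxb6 and 0.59 in Hoxc6. Group 9 was mixed, with 1.25 in Hoxb9, 0.61 in Hoxc9, 0.47 in Hoxa9 and −0.11 in Hoxd9. In groups 10 to 13, 0 of 12 passed (limma), and 1 of 12, Hoxa10, had an unadjusted p under 0.05. Groups 5 to 9 of HOXA, HOXB and HOXC were a range picked after the values were seen. In it 10 of 13 members rose, and in all 13 the mutant values lay above the control values. Among all named genes 16.3% had all mutant values above all control values. Of the 13 members 12 lay above the receptor limit. Of the 12630 named genes above that limit 1060 were called higher. The borders of the other regions were also drawn with values known, and differences between regions were not tested.

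The clusters also hold microRNA genes, of which miR-10 and miR-196 are shown because their genes were measured and because miR-196 is known to cleave Hoxb8 messenger RNA. The mature sequences are from RefSeq (GRCm38.p6), 5′ to 3′, with the seed, bases 2 to 8, in capitals.
miR-10a-5p, from Mir10a in HOXB (chr11:96317186-96317208, plus strand): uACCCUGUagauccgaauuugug
miR-10b-5p, from Mir10b in HOXD (chr2:74726074-74726096, plus strand): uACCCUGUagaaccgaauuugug
miR-196a-5p, from Mir196a-1 in HOXB (chr11:96265187-96265208, plus strand) and Mir196a-2 in HOXC (chr15:102973365-102973386, plus strand): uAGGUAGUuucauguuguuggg
miR-196b-5p, from Mir196b in HOXA (chr6:52230129-52230150, minus strand): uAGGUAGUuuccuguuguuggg
The miR-10 pair share one seed and the miR-196 genes another. The arrays measure the genes' transcripts, not the mature microRNAs. Mir10a had 4.39, 4.37 and 4.49 in mutants, against 4.02, 4.12 and 3.93 in controls (log2 fold change 0.39, limma adjusted p = 0.0358). Mir196a-1 had 6.16, 5.82 and 5.74 in mutants, against 5.39, 5.46 and 5.35 in controls (log2 fold change 0.51, adjusted p = 0.0486). Both lay far below the receptor limit of 7.40. Neither passed in any fit that left out 1 mouse (adjusted p from 0.0565 to 0.158 for Mir10a and from 0.0713 to 0.123 for Mir196a-1) or with the replicate number as a block (0.0786 and 0.0521). Mir196a-2 stood at −0.41 (adjusted p = 0.12). Mir10a and Mir196a-1 were the 2 members that passed of 16 measured noncoding and flanking genes of the clusters, and none fell (median log2 fold change 0.03). Of all named genes 5.74% were called higher and 3.89% lower, 9.62% in all.

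Partners and regulators of HOX genes were read in lists, which were chosen with earlier results of these data known. Of 17 retinoic acid genes 6 rose and 1 fell (median −0.05), beside 5.74% of all named genes called higher and 3.89% lower. Stra6, the membrane receptor for retinol-binding protein, averaged 12.12 ± 0.23 in mutants and 10.48 ± 0.15 in controls (SD, n = 3 each), a log2 fold change of 1.64 (limma adjusted p = 0.00111). Aldh1a1, which makes retinoic acid from retinal, averaged 11.37 ± 0.13 in mutants and 9.95 ± 0.23 in controls (log2 fold change 1.42, adjusted p = 0.00174). Rdh10, which makes retinal, rose by 0.64 (adjusted p = 0.0421), and Rxrg, a retinoid X receptor, fell by 2.03 on the log2 scale (adjusted p = 0.0163). The carrier Crabp2 (0.63) and the receptors Rarb (0.53) and Rara (0.41) rose as well, and these 3 were named after their values were seen. The genes of retinoic acid breakdown, Cyp26a1, Cyp26b1 and Cyp26c1, did not pass. Aldh1a3 stood at −0.73 (limma adjusted p = 0.175), Dhrs3 at −0.33 (0.207) and Aldh1a2 at −0.22 (0.437), and none of them passed. Over the list 7 differences were positive and 10 negative. Cyp26a1, Cyp26c1 and Aldh1a2 were the 3 genes of the list that lay below the receptor limit of 7.40. Of the 7 calls, those of Stra6 and Aldh1a1 held in all 6 fits that left out 1 mouse. The other 5 were lost without mutant 1 (adjusted p from 0.064 for Rxrg to 0.164 for Rara) or mutant 3 (0.0727 to 0.153). Some were also lost without control 1 (Crabp2 0.0642, Rarb 0.0621, Rdh10 0.109, Rara 0.0847), control 2 (Crabp2 0.0714, Rdh10 0.123, Rxrg 0.0565, Rara 0.1) or control 3 (Rarb 0.0622, Rara 0.0621). Blocking by replicate number ended the call of Rara (0.0616). Adding sex to the model, Crabp2 (0.0637), Rdh10 (0.0926) and Rara (0.0881) did not pass, and Rdh10 and Rara were also lost with median centring (0.0731 and 0.075), the muscle score (0.0526 and 0.0594) or without both mice numbered 2 (0.0823 and 0.0682).

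Of 8 measured TALE homeodomain partners, the PBX, MEIS and PKNOX factors, 1 rose and none fell (median 0.15). Over all named genes 5.74% were called higher and 3.89% lower. Pbx3, the gene that rose, averaged 9.97 ± 0.26 in mutants and 9.29 ± 0.03 in controls (SD, n = 3 each, log2 fold change 0.68, limma adjusted p = 0.0229). It did not pass without mutant 1 (0.105), mutant 3 (0.0847) or any control (0.0576 to 0.0667). Meis2 stood at 0.62 (adjusted p = 0.0888). Of 20 Polycomb and Trithorax genes, which hold HOX genes silent or active, 0 passed (limma), 4 had an unadjusted p under 0.05, near the 22.4% of all genes, and the median was 0.07. The smallest p was that of Cbx2, a Polycomb subunit, at −0.31 (adjusted p = 0.0802). Of the 3 CDX factors 0 passed and 0 had an unadjusted p under 0.05, with Cdx4 at −0.09 (adjusted p = 0.67) the nearest. Of these factors 2 lay below the receptor limit, Cdx4 at a mean of 4.27, so a change in them could be missed.

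Genes that mark other positions were compared for reference. Of 13 limb and trunk position genes 3 rose and none fell (median 0.05), beside 5.74% of all named genes called higher and 3.89% lower. Tbx18 rose by 1.03 (limma adjusted p = 0.00456), Nr2f2, a nuclear receptor, by 0.89 (adjusted p = 0.00272) and Shox2, a limb gene, by 0.37 (adjusted p = 0.0431). The call of Shox2 was lost in each fit that left out 1 mouse (0.0526 to 0.186) and with the replicate number as a block (0.0821), the muscle score (0.072), sex (0.0589) or median centring (0.0728). The hindlimb genes Tbx4 and Pitx1 and the forelimb gene Tbx5 did not pass, and Tbx5 stood at −0.27 (adjusted p = 0.321). Tbx5 (mean 6.24) and Pitx1 (mean 7.26) lay below the receptor limit. Of 8 homeobox genes of the head and forebrain (the anterior homeobox list) 0 passed and 0 had an unadjusted p under 0.05, with Otx2 at −0.13 (adjusted p = 0.565) the nearest. Below the receptor limit lay 6 of the 8, Otx2 among them at a mean of 6.56.

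**Figure D4:**
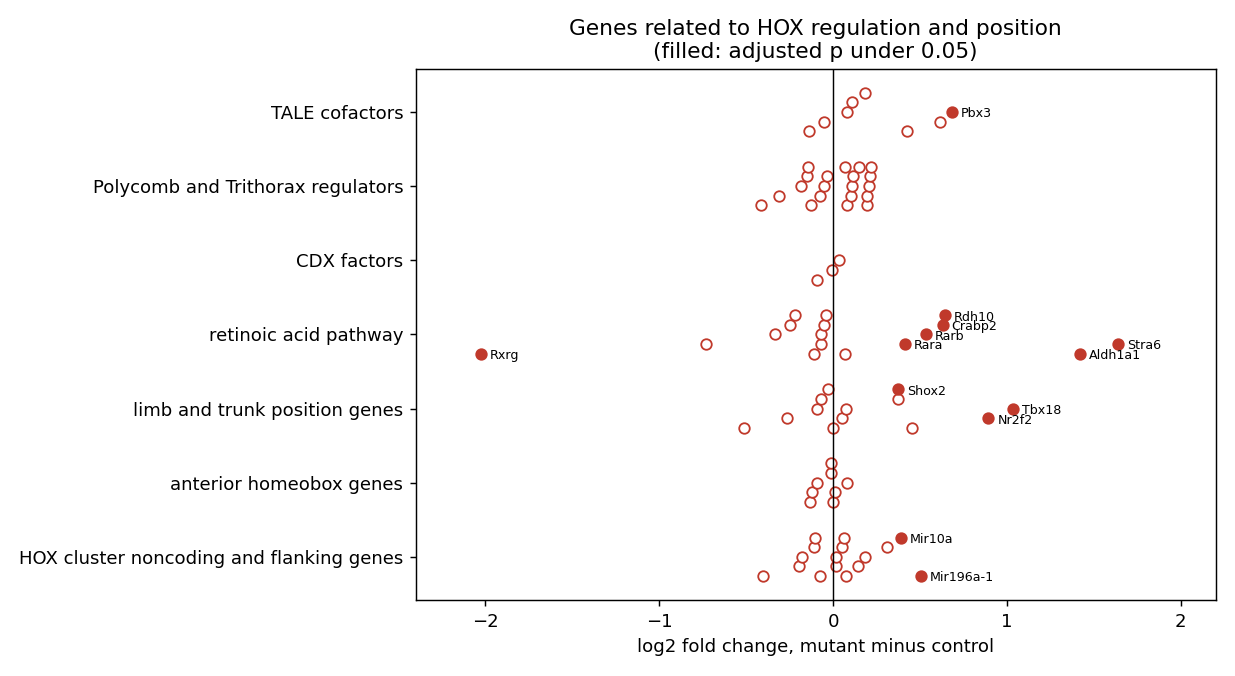
Log2 fold changes (x axis, mutant minus control) of the genes in the 7 lists related to HOX regulation and position, 1 point per gene, filled where the adjusted p was under 0.05. Of the 13 filled points, 7 belong to the retinoic acid list, in which 10 of 17 genes did not pass, and Rxrg is the 1 that lies below 0.

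The nerves hold several cell types that may carry HOX transcripts, and in whole nerve a change in the number of such cells and a change in RNA per cell cannot be told apart. Of 7 fibroblast markers 2 rose, Lum (0.99) and Pdgfra (0.51), and none fell. Their summed level was 15.32 to 15.48 in mutants and 14.99 to 15.20 in controls (log2 scale). Of 6 perineurial markers 5 rose, summing to 14.48 to 14.65 in mutants and 13.43 to 13.88 in controls. Of 4 Schwann cell markers 2 fell, S100b and Erbb3, summing to 12.19 to 12.59 in mutants and 12.89 to 13.54 in controls. Of all named genes 5.74% were called higher and 3.89% lower. The summed levels of these 3 lists did not overlap between the groups. Several of the calls depended on single mice. Without mutant 3, Msln (adjusted p = 0.0594), Casq2 (0.0529) and Slc2a1 (0.0755) did not pass, which left 2 perineurial markers, Cldn1 and Moxd1. Without mutant 1, Msln (0.0527) and Slc2a1 (0.0753) did not pass. Pdgfra was lost without mutant 1 (0.105), mutant 3 (0.101), control 2 (0.0609) or control 3 (0.0569). Erbb3 was lost without mutant 1 (0.0635) or mutant 3 (0.051). Without both mice numbered 2, Msln (0.0717), Pdgfra (0.0521) and Erbb3 (0.071) did not pass. All members of these 3 lists lay above the receptor limit, the lowest at a mean of 9.14. The part of these cells in the HOX differences was not tested beyond the fits given here.

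The other marker lists overlapped between the groups. No marker of muscle (8 genes), satellite cells (4), fat (5), endothelium (5), macrophages (5) or neurons (5) passed (limma), with 2 endothelial and 2 macrophage genes at an unadjusted p under 0.05. Their summed levels were 13.58 to 14.13 in mutants and 12.97 to 14.81 in controls for fat. For endothelium they were 12.88 to 12.92 in mutants and 12.49 to 13.02 in controls, and for macrophages 12.14 to 12.44 in mutants and 11.78 to 12.20 in controls. For neurons they were 9.85 to 10.10 in mutants and 9.88 to 10.25 in controls. With the mean of the 7 fibroblast markers as a covariate, chosen after seeing the data, 0 of 38 HOX genes passed. In that fit 0.563% of all genes were called higher, and the smallest adjusted p of a HOX gene was that of Hoxb9, at 0.0861 with a log2 fold change of 1.25. The other called genes had log2 fold changes in it of 0.50 (Hoxa3), 0.53 (Hoxa5), 0.62 (Hoxa6), 0.44 (Hoxa7), 0.71 (Hoxb5), 0.47 (Hoxb6), 0.72 (Hoxb8), 0.77 (Hoxc5), 0.57 (Hoxc6) and 0.28 (Hoxc9). Those of Hoxa5 and Hoxc9 were 1.02 and 0.61 without the covariate. The fibroblast mean itself was 12.23, 11.96 and 12.22 in mutants and 11.96, 11.82 and 11.53 in controls, so it nearly separated the groups, and Zeb2 did not pass in that fit either (log2 fold change −0.80, adjusted p = 0.301). With the muscle score as a covariate 9 HOX genes passed, beside 5.12% of all genes called higher, and without both mice numbered 2, 6 did, beside 4.3%.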

How the data were processed

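The authors deposited 1 table of log2 values, 1 value per probe set and mouse, for 3 mutant and 3 control nerves. The log base was read from the values (3.55 to 14.52). Per the labels' protocols, total RNA was extracted with Trizol and labelled with biotin after the Ambion WT kit. Only limma is named, with no version, per the submitters' processing notes. How probes were background-corrected, normalized and summarised is not given by the labels or notes used here. Arrays have no read depth.

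The platform annotation gave 1 symbol to 20239 of 21225 probe sets and none to 986, and 0 had several. Symbols were looked up through Entrez numbers in RefSeq GRCm38.p6, which changed 0. The table held 0 sample columns outside the study. A linear model with moderated errors (limma 3.58.1 under R 4.3.3, mutant minus control, two-sided, 6.893 degrees of freedom) was run on every gene, and p-values were adjusted by Benjamini-Hochberg over the 20239 genes. The fit was tested on simulated data. Figures were drawn with matplotlib 3.10.9.

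The labels call the mice biological replicates and number them 1 to 3 in both groups. Deviations from group means correlated at 0.36, 0.574 and 0.295 between same-numbered mice, so the number was used as a block in an alternative, with the blocked value given where it changed a call. Mutant 1 and control 3 correlated at 0.303. Sex, used as a covariate, was taken from the levels of Xist and of Y-linked genes. By these, mutant 1, mutant 2 and control 3 were male, and mutant 3, control 1 and control 2 were female. Sex was thus not balanced between the groups.

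The members, lists and tests were chosen with earlier results of these data known. Values per mouse are given for the top pair of each cluster, every member past the test and the smallest p of each cluster, and for Hoxa4, Hoxd9, Hoxd10 and Hoxc10, chosen after their values were seen. In a related list, up to 4 members past the test with the largest change, or else the smallest p, were named. Others named there (Meis2, the Cyp26 genes, Aldh1a2, Aldh1a3, Dhrs3, Tbx4, Pitx1, Tbx5, Mir196a-2) were chosen after their values were seen.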

Additional observations from a re-analysis of the deposited data

How the results depend on the processing

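No HOX gene was called lower in any of 20 alternatives, and no HOXD gene passed where it was tested, in 18 or 19 of them. The count of HOX genes called higher, 11, ran from 5 to 11 when 1 mouse was left out. It was 17 with array weights, where 11.9% of all genes were called higher, 7 of the 10 members left without the lowest 50% of genes, 6 without both mice numbered 2 and 0 with the fibroblast score. The replicate number as a block gave 10, all among the 11, and changed no HOX call besides that of Hoxc9. With sex as a covariate 10 passed, 9 of them among the 11. The median log2 fold change, 0.25, ran from 0.20 to 0.28 when 1 mouse was left out. It was 0.28 with the adipocyte score, 0.21 with array weights, 0.20 with median centring, 0.19 with the fibroblast score, 0.30 with sex, 0.30 without both mice numbered 2, and 0.37 and 0.565 without the lowest 25% and 50% of genes, where 31 and 10 members were left. The related genes past the test, 13, numbered 4 to 11 when 1 mouse was left out, 8 with median centring, 8 with the muscle score, 8 with sex and 2, Aldh1a1 and Nr2f2, with the fibroblast score, but 18 with array weights and 16 with the adipocyte score. Of the members, 13 lay above the 99th percentile of receptor genes and 10 above the median of all named genes. No called HOX gene changed sign. Among members not called, Hoxa4, Hoxc12 and Hoxd13 turned sign most often, in 6, 9 and 6 alternatives. The causes were not tested, except that filters left fewer members. Array signal near background limits what can be said of the low members.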

Other observations

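Between same-numbered mice, the mutant minus control difference was positive in 29, 29 and 31 of the 38 HOX genes for numbers 1, 2 and 3, with medians of 0.33, 0.19 and 0.30 on the log2 scale. Tbx15, a T-box gene of limb and trunk mesenchyme, was at 9.52, 10.15 and 9.72 in mutants and 8.85, 10.35 and 8.83 in controls, highest in control 2 and then mutant 2, the order also measured for Hoxc10, Hoxd9 and Hoxd10. Skap2, which flanks HOXA, was at 8.84, 8.57 and 8.90 in mutants and 8.42, 8.49 and 8.48 in controls, and did not pass (log2 fold change 0.31, limma adjusted p = 0.139).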
